A study of Homo sapiens with 6 samples.

Results

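The genes described here are 10 components of the YAP/TAZ arm of the Hippo pathway: the coactivators YAP1 and WWTR1 (the protein TAZ), the DNA-binding factors TEAD1, TEAD2 and TEAD4, the kinase LATS2, and the target genes CTGF, CYR61, ANKRD1 and AMOTL2. They were picked by gene symbol, with earlier results of these data known. They are 14 of the 47322 probes, or 10 of the 31424 gene symbols, of the Illumina HumanHT-12 v4 BeadChip. RNA came from cultures of MDA-MB-231, an established line from a breast tumour that lacks hormone receptors and has mesenchymal traits. On 3 arrays the cells carried a scrambled short hairpin RNA (shRNA), named shCntrl in the labels, and on 3 arrays they carried a hairpin against the transcription factor SOX4, named shSOX4#1. All 6 samples were transduced cells of the same line. The labels do not say whether the transduced cells were a pool or a clone, nor whether replicates were separate cultures. The p-values therefore reflect only how much these samples differed, which may be technical spread. Loss of SOX4 and any other effect of this 1 hairpin cannot be told apart. The series title links SOX4 to tension and the ion channel TRPM7, and YAP and TAZ are known as sensors of cytoskeletal tension, so the comparison asks whether their pathway shifts at the RNA level when SOX4 is depleted.

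In the Hippo pathway, the kinases STK3 and STK4 with the scaffold SAV1 activate LATS1 and LATS2 and their partners MOB1A and MOB1B, and the LATS kinases phosphorylate YAP and TAZ, which then stay in the cytoplasm. Unphosphorylated YAP and TAZ enter the nucleus, bind TEAD factors and switch on genes such as CTGF, CYR61, ANKRD1 and AMOTL2, and LATS2 and AMOTL2 in turn restrain YAP and TAZ. The main control thus acts on protein phosphorylation and location, which RNA arrays do not measure.

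Between 15197 and 16187 probes were detected per array (detection p under 0.01), and precision is limited by having only 6 arrays. Across genes, which are not independent replicates, arrays correlated at 0.995 or above within a group and at 0.983 or below between groups. A pair of scrambled arrays carry the same replicate heading and are called 2a and 2b. Of the markers of the line, VIM, CD44, AXL and S100A4 were detected on all 6 arrays and SPARC on none, while of 8 epithelial and luminal markers EPCAM, KRT18, KRT8 and ERBB2 were detected on all 6, GATA3 on 5 and CDH1, ESR1 and PGR on none. EPCAM was higher with the SOX4 hairpin (log2 difference 0.49, adjusted p = 0.00020, limma), and its part in the results below was not tested. The other epithelial and luminal markers with a fitted difference did not pass in limma (KRT18 0.078, KRT8 -0.078, ERBB2 0.017 and GATA3 0.28). Of 3 leucocyte, 4 endothelial and 6 fibroblast markers, none was detected on all 6 arrays, and PTPRC, CD3D, CDH5, VWF, KDR, PDGFRA, DCN and POSTN were detected on none. PDGFRB was detected on the 3 scrambled arrays only (log2 difference -0.67, adjusted p = 0.014, limma). LUM was detected on the 3 SOX4 shRNA arrays only (0.49, adjusted p = 0.069, limma). Each was kept for testing only through the group in which it was detected, so neither value is a fair test of a change. LYZ was detected on 5 arrays. The summed deposited intensity of the leucocyte markers was 373 to 383 on the scrambled arrays and 375 to 388 on the SOX4 shRNA arrays, that of the endothelial markers 461 to 478 and 460 to 489, and that of the fibroblast markers 733 to 771 and 734 to 766. SOX4 itself had deposited intensities of 291, 357 and 336 on the scrambled arrays and 136, 155 and 146 on the SOX4 shRNA arrays, without overlap.

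Core genes moved in both directions. Of 9 measured genes, 3 were higher with the SOX4 hairpin (LATS2, CYR61 and ANKRD1), 2 were lower (CTGF and TEAD2), and 4 did not pass the test (YAP1, WWTR1, TEAD4 and AMOTL2), at an adjusted p under 0.05 in limma over all 12451 rows tested. Over all rows 30.6% passed, 15.2% higher and 15.4% lower. In the values the authors normalized, where 34687 rows were tested without a detection filter, 4 of the core genes and 6.23% of all rows passed. The log2 differences, SOX4 shRNA minus scrambled throughout, ran from -0.65 for CTGF to 0.67 for LATS2 with a median of 0.11, against a median of -0.0093 over all rows. The values of the 2 groups did not overlap for 8 of the 9 genes, and for 42.0% of all rows. TEAD1 was not measured. A probe was kept where it was detected on at least 3 of the 6 arrays, and WWTR1 and AMOTL2 passed this mainly through the scrambled arrays, so the counts are not counts over all 10 genes. LATS2 was detected on 2 scrambled arrays and on 3 SOX4 shRNA arrays, so it was kept only with the group in which it was higher. In a bulk sample, fewer cells of a type and less RNA per cell cannot be told apart.

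**Figure D1:**
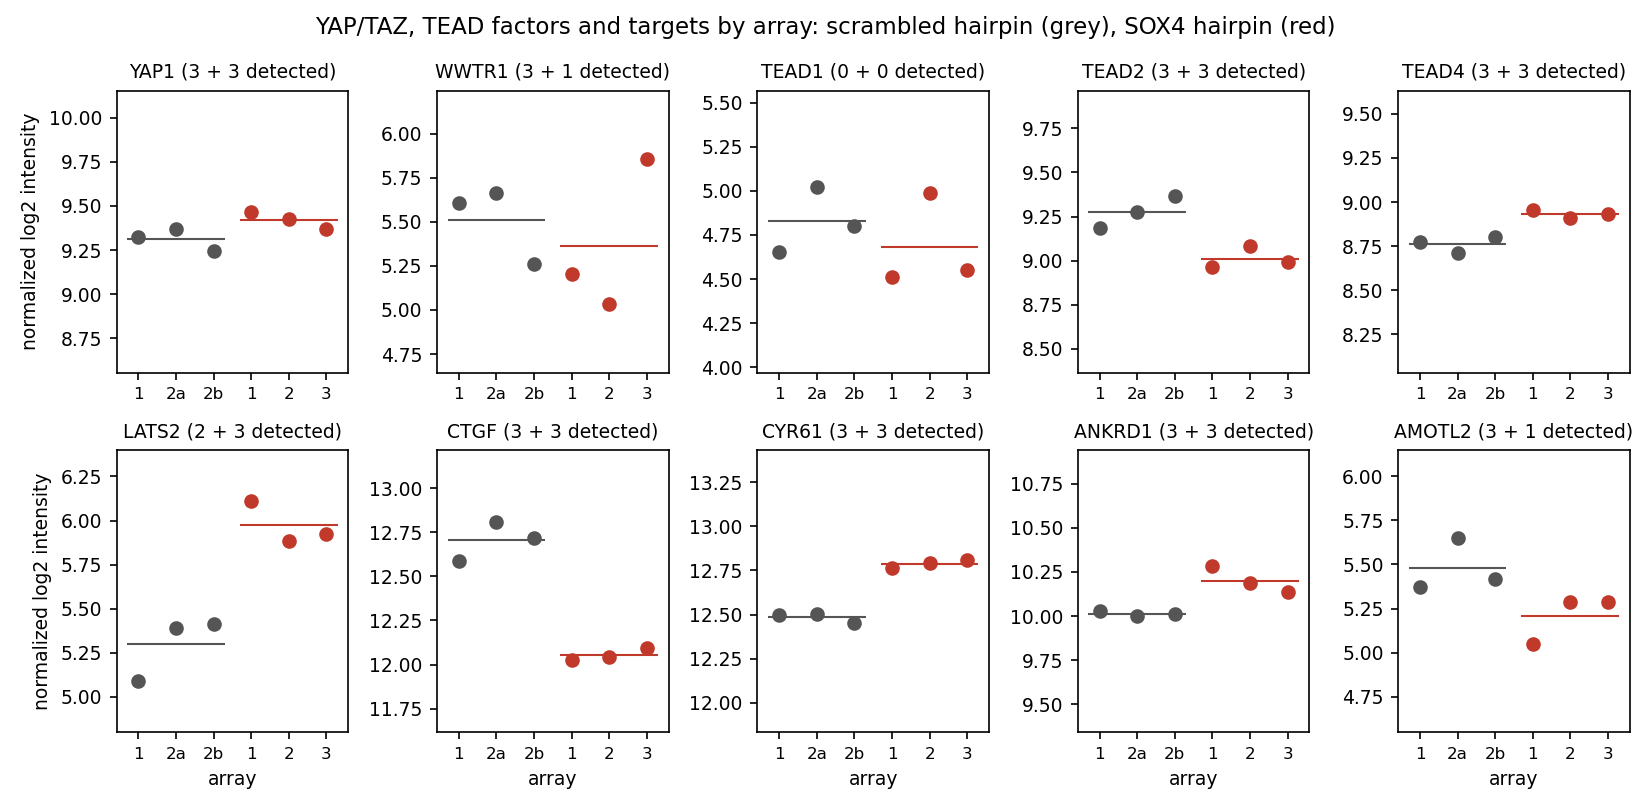
Normalized log2 intensity of the 10 genes on each array (x axis, array name), 1 panel per gene, with points for arrays and lines for group means (n = 3 per group). Each panel spans the same log2 range, and the title gives the number of arrays with a detected probe, scrambled plus SOX4 shRNA. CTGF and TEAD2 sit lower and LATS2, CYR61 and ANKRD1 higher with the SOX4 hairpin, while WWTR1 overlaps and TEAD1 was detected on no array.

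Of the coactivators, neither passed the test. YAP1, which carries the transactivation domain that TEAD factors lack, had deposited intensities of 686, 770 and 674 on the scrambled arrays and 814, 811 and 803 on the SOX4 shRNA arrays. All 3 SOX4 shRNA values were above all 3 scrambled values, and after normalization the gap narrowed to log2 levels of 9.25 to 9.37 against 9.37 to 9.46. YAP1 differed by 0.11 ± 0.07 on the log2 scale (SE from 3 arrays per group) with an adjusted p of 0.26 in limma. Its 95% interval ran from -0.034 to 0.25.

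WWTR1, the gene of TAZ, lay close to the detection limit. Its single probe, ILMN_1787115, had deposited intensities of 142, 150 and 134 on the scrambled arrays and 136, 132 and 163 on the SOX4 shRNA arrays. It was detected on all 3 scrambled arrays and on 1 SOX4 shRNA array, replicate 3, which was the highest of the 6. The groups overlapped, and the log2 difference of -0.14 ± 0.21 (SE, n = 3 per group) had an adjusted p of 0.66 in limma. Without SOX4 shRNA replicate 2 it was 0.022, and without replicate 3 it was -0.39. The log2 YAP1 minus WWTR1 value overlapped between the groups, at 3.71 to 3.99 on the scrambled and 3.52 to 4.39 on the SOX4 shRNA arrays (exact two-sided permutation p = 0.4, and 0.4 adjusted over the 4 gene pairs compared). The chip symbol TAZ, with 3 probes, is an older symbol of the tafazzin gene and was not counted as WWTR1.

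Among the TEAD factors, which bring YAP and TAZ to DNA, TEAD2 fell. Its deposited intensities were 634, 726 and 727 on the scrambled arrays and 607, 663 and 638 on the SOX4 shRNA arrays, which overlap, but the normalized log2 levels did not, at 9.18, 9.28 and 9.37 against 8.96, 9.08 and 8.99. TEAD2 thus differed by -0.26 ± 0.07 in log2 level (SE, n = 3 per group), a level 1.20-fold lower (limma, adjusted p = 0.0066). With the values the authors normalized it was -0.27 with an adjusted p of 0.046, a call lost with the replicate number as a block (adjusted p = 0.062, limma), where 5.60% of all rows passed.

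TEAD4 had 3 probes on the chip. The brightest, ILMN_1705301, read 498, 524 and 525 on the scrambled arrays and 603, 598 and 616 on the SOX4 shRNA arrays, so the groups did not overlap. Its log2 difference of 0.17 ± 0.07 (SE, n = 3 per group) did not pass the test, with an adjusted p of 0.080 in limma. A second kept probe, ILMN_2413041, was detected on 3 of the 6 arrays and had a difference of 0.042 ± 0.20 (SE), and the third was detected on 1 array only. In the values the authors normalized, with 1 row per gene, TEAD4 had 0.046. That row had mean log2 levels of 4.08 (scrambled) and 4.13 (SOX4 shRNA), against 8.76 and 8.93 for the brightest probe in the main setting. Which probes it rests on was not tested. The authors' deposited table gives TEAD4 a linear fold of 1.11. This is more than a log2 difference of 0.046 would give, and is near the 1.12-fold of the brightest probe.

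The opposite signs of TEAD2 and TEAD4 gave a gap of -0.43 between their log2 differences. TEAD4 alone did not pass the test, and the 4 gene pairs compared were not among the planned tests. The log2 TEAD2 minus TEAD4 value was 0.41 to 0.57 on the scrambled arrays and 0.0086 to 0.17 on the SOX4 shRNA arrays, without overlap. An exact two-sided permutation test over the 6 arrays gave p = 0.1, the smallest that 3 against 3 arrays allow, and 0.13 after Benjamini-Hochberg adjustment over the 4 gene pairs compared.

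The remaining TEAD genes gave little. Neither TEAD1 probe was detected on any array: detection p ran from 0.027 to 0.93, and intensities of 103 to 132 lay near the array medians of 119 to 124. TEAD3 was detected on all 6 arrays, at 182, 220 and 147 against 193, 211 and 205. Its scrambled arrays spread more widely than its SOX4 shRNA arrays, and its log2 difference of 0.26 ± 0.19 (SE, n = 3 per group) had an adjusted p of 0.33 in limma. Without scrambled array 2a the TEAD3 difference was 0.51 with an adjusted p of 0.043 in limma, a fit in which 26.1% of all rows passed. Without scrambled array 2b, its lowest array, the difference changed sign, to -0.077 with an adjusted p of 0.74 in limma.

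LATS2, which encodes a kinase that inactivates YAP and TAZ and is itself a YAP/TAZ target, rose. The deposited intensities of its probe, ILMN_1703412, were 129, 142 and 138 on the scrambled arrays, where it was detected on 2 of 3, and 168, 160 and 166 on the SOX4 shRNA arrays, where it was detected on all 3. The groups did not overlap. The log2 difference was 0.67 ± 0.18 (SE, n = 3 per group), or 1.60-fold higher, with an adjusted p of 0.0045 in limma. The size moved with the processing: it was 0.23 with no background correction and 1.16 in the values the authors normalized, which differ in normalization and filter as well, and the call was kept in both. The authors' deposited table gives a fold of 2.26.

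AMOTL2, an angiomotin-family protein that holds YAP at cell junctions, did not pass the test. Its intensities of 136, 150 and 138 on the scrambled arrays and 132, 139 and 142 on the SOX4 shRNA arrays overlap, although the normalized log2 levels did not (5.37 to 5.65 against 5.05 to 5.29). It was detected on all 3 scrambled arrays and 1 SOX4 shRNA array. AMOTL2 had a log2 difference of -0.27 ± 0.19 (SE from 3 arrays per group) with an adjusted p of 0.31 in limma, and -0.081 with no background correction. Its 95% interval, from -0.67 to 0.13, included 0.

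The secreted matricellular proteins CTGF and CYR61, members of the CCN family and common readouts of YAP activity, changed in opposite directions. CTGF is named CCN2 in RefSeq, and CYR61 is named CCN1. The brighter CTGF probe, ILMN_1699829, read 5904, 7389 and 6674 on the scrambled arrays and 4321, 4385 and 4600 on the SOX4 shRNA arrays. Every SOX4 shRNA array was below every scrambled array. This probe had a log2 difference of -0.65 ± 0.05 (SE from 3 arrays per group), a level 1.57-fold lower (limma, adjusted p = 7.8e-10).

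The second CTGF probe, ILMN_2115125, read 3993, 4413 and 3899 against 2630, 2979 and 2743, again without overlap. Its log2 difference of -0.64 ± 0.06 (SE) was within error of that of the first probe. In size, the CTGF change was larger than that of 94.0% of all rows tested, and it was -0.65 in the values the authors normalized. The authors' deposited table gives CTGF a fold of 0.63.

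CYR61 rose. Its probe, ILMN_2188264, read 5595, 5998 and 5612 on the scrambled arrays and 7178, 7224 and 7575 on the SOX4 shRNA arrays, without overlap. The log2 difference was 0.30 ± 0.05 (SE, n = 3 per group), or 1.23-fold higher, with an adjusted p of 1.9e-05 in limma. The authors' deposited table gives CYR61 a fold of 1.22.

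The log2 CTGF minus CYR61 value fell from 0.088 to 0.30 on the scrambled arrays to between -0.74 and -0.72 on the SOX4 shRNA arrays. The gap between the log2 differences of these paralogs was -0.95 (exact two-sided permutation p = 0.1, the smallest possible, and 0.13 adjusted over the 4 pairs). Of the other CCN family genes, WISP1, WISP2 and WISP3 were detected on no array. NOV, which encodes CCN3, fell, with intensities of 288, 315 and 307 against 211, 227 and 231, and the log2 level differed by -0.84 ± 0.10 (SE, 3 arrays per group) with an adjusted p of 3.5e-07 in limma.

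ANKRD1, an ankyrin-repeat protein of the nucleus and sarcomere, rose slightly. Its intensities were 1065, 1133 and 1096 on the scrambled arrays and 1367, 1297 and 1284 on the SOX4 shRNA arrays, without overlap. The log2 difference was 0.19 ± 0.06 (SE, n = 3 per group), or 1.14-fold higher, with an adjusted p of 0.023 in limma. The call was lost in the values the authors normalized (0.19, adjusted p = 0.081) and without scrambled array 2a (adjusted p = 0.065), SOX4 shRNA replicate 1 (0.115) or SOX4 shRNA replicate 2 (0.051), all in limma. The gap between the log2 differences of CTGF and ANKRD1 was -0.84 (exact two-sided permutation p = 0.1, 0.13 adjusted over the 4 pairs).

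**Figure D2:**
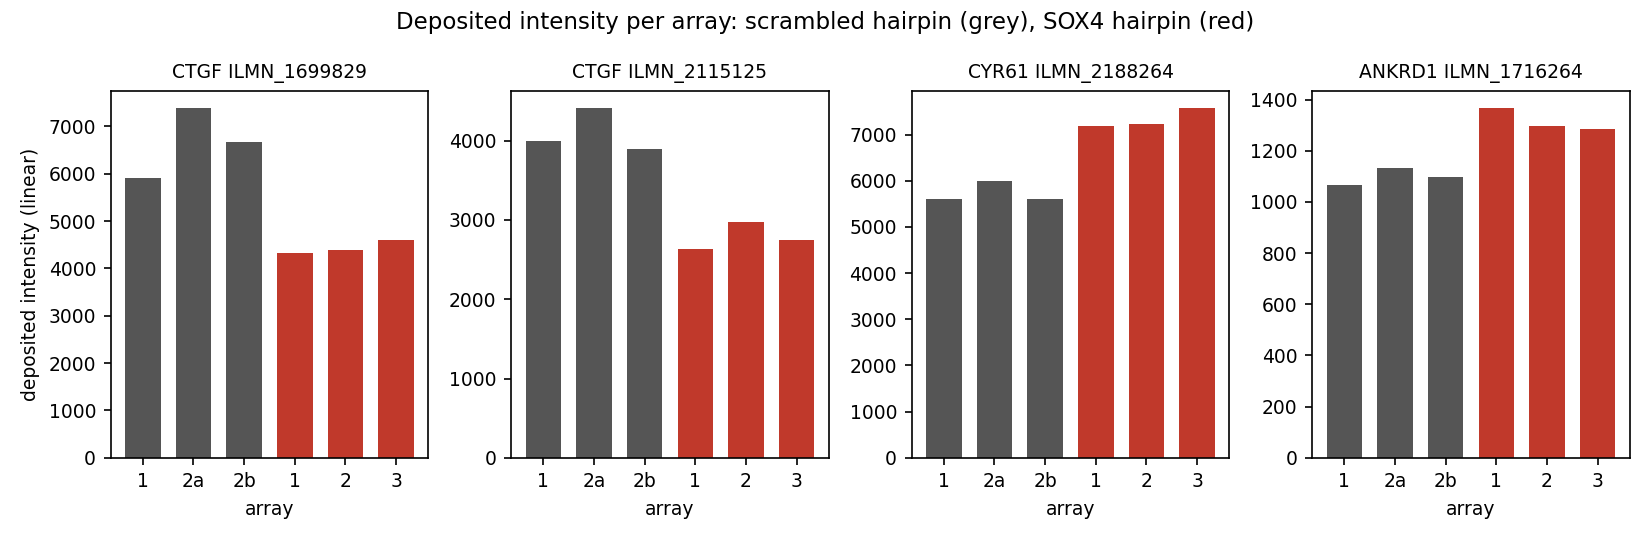
Deposited probe intensity on a linear scale from 0 (y axis) for both CTGF probes, CYR61 and ANKRD1 on each array (x axis), grey for the scrambled and red for the SOX4 hairpin, 1 bar per array. Both CTGF probes are lower on every SOX4 shRNA array, and CYR61 and ANKRD1 are higher on every one.

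The promoters of CTGF and ANKRD1 are shown because these genes moved in opposite directions while both carry the letters that TEAD factors are known to bind. Each window of 300 bases runs from 250 bases before to 50 bases after the RefSeq start (GRCh38.p14), 5′ to 3′ along the gene, with every match to the TEAD core CATTCC, on either strand, in capitals. The CTGF window is chr6:131951323-131951622 and that of ANKRD1 is chr10:90921038-90921337, both on the minus strand.
CTGF: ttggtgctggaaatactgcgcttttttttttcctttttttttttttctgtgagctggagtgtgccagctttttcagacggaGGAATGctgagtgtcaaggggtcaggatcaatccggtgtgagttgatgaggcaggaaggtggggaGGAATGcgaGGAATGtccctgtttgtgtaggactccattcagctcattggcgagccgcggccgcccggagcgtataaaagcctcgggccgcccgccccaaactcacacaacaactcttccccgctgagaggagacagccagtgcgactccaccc
ANKRD1: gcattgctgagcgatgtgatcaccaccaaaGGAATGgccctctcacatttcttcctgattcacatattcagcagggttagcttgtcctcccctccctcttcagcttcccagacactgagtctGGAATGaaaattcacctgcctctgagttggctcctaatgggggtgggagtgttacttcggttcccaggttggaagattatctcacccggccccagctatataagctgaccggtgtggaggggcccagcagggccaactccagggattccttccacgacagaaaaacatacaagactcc
In CTGF the matches begin 169, 104 and 95 bases upstream of the start, and in ANKRD1 220 and 128 bases upstream. All 5 lie on the strand opposite to the gene and none overlaps another. No RefSeq window was matched for CYR61, TEAD1 or TEAD4, so CYR61 could not be set beside CTGF here. Windows were matched for 7 of the 10 genes, 10 windows in all because some genes have a second start. Among them YAP1, LATS2 and AMOTL2 also had a match, and WWTR1 and TEAD2 had none. Of all 35116 windows of the same length, 4928 held at least 1 match, 1.37% at least 2 and 0.128% at least 3. The letters TGANTCA, a loose form of the AP-1 site with any base at N, were found in the ANKRD1 window only. That match, TGATTCA, begins 195 bases upstream, and 7.7% of all windows held a match. The SOX core AACAAAG was found in windows of WWTR1 and TEAD2 and in 5.2% of all windows. These matches describe letters in these windows and not binding.

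The RNA profile nearest to that of CTGF was sought over the 6 arrays, by the root mean square distance between profiles after subtracting each gene's own mean. The nearest named genes outside the group were MAGED1, KLF9 and C14ORF4, at distances of 0.048, 0.051 and 0.051 log2 units. Their log2 differences were -0.72, -0.67 and -0.62. With 2 groups of 3 arrays, a near profile mainly means a like difference between the groups.

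Of 17 genes of a published pan-cancer YAP/TAZ target set outside the 10, 16 were measured, 4 rose, 2 fell and 10 did not pass the test, so that 37.5% passed, against 30.6% of all rows. The median log2 difference was -0.067, close to that over all rows. NUAK2, a kinase of the AMPK family, read 137, 122 and 124 against 176, 192 and 175. It was detected on 1 scrambled array and on all 3 SOX4 shRNA arrays, so the count of 4 that rose includes a gene kept mainly through the latter. Its log2 difference of 1.32 ± 0.20 (SE, n = 3 per group) rests on a level near background. It was 0.45 with no background correction and 2.05 in the values the authors normalized. TGFB2, a ligand of the TGF-beta family, read 156, 180 and 174 against 233, 246 and 249, and its log2 level rose by 0.90 ± 0.13 (SE), or by 0.46 with no background correction and 1.15 in the values the authors normalized. The GTPase-activating protein gene ASAP1 rose by 0.67 ± 0.07 and F3, tissue factor, by 0.59 ± 0.07 (SE), each without overlap between the groups. The other kept probes had 0.44 and 0.51 for ASAP1 and 0.86 for F3.

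Those that fell were NT5E, a cell-surface enzyme that makes adenosine, and the receptor tyrosine kinase AXL. NT5E read 2190, 2549 and 2212 against 1574, 1730 and 1739, without overlap, and its log2 level differed by -0.57 ± 0.06 (SE). AXL had -0.31 ± 0.06 (SE) on its brightest probe and -0.053 on its other kept probe, and its call was lost in the values the authors normalized (-0.18, adjusted p = 0.13, limma). AXL and NT5E are also used as mesenchymal markers. Of the other mesenchymal line markers, VIM had a log2 difference of -0.23 and S100A4 one of 0.38. CD44 had -0.066 and did not pass (adjusted p = 0.35, limma). Of the 10 genes that did not pass, IGFBP3 had -0.22 on its brightest probe and -0.49 on the other, which passed when every kept probe was tested (adjusted p = 3.9e-04, limma), a test that 28.9% of probes passed. The second probe of GADD45A, a stress-induced growth arrest gene, passed there too (-0.20, adjusted p = 0.045, limma). With the mean of a gene's kept probes, both genes passed as lower and the list had 4 higher and 4 lower, where 30.1% of all rows passed.

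Upstream of YAP and TAZ, 34 kinases, scaffolds and other Hippo regulators were listed. Of these 24 were measured, 5 rose, 1 fell and 18 did not pass, with a median log2 difference of 0.092. This is 25.0% of those measured, against 30.6% of all rows. WWC1, a scaffold also called KIBRA that promotes LATS activity, had the largest change, with intensities of 370, 383 and 390 against 675, 674 and 705, and a log2 level higher by 0.93 ± 0.08 (SE; limma, adjusted p = 3.7e-10). MAP4K2, a kinase able to phosphorylate LATS, rose by 0.44 ± 0.07, the LATS partner MOB1A by 0.37 ± 0.08 and the kinase STK4 by 0.35 ± 0.07 (SE). SLMAP, a subunit of the STRIPAK phosphatase complex that opposes the kinases, rose by 0.24 ± 0.07 (SE) and lost its call in the values the authors normalized, without the intensity trend, and without scrambled replicate 1 or SOX4 shRNA replicate 1.

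RASSF1, a scaffold that binds the STK kinases, fell by 0.39 ± 0.08 on its brightest probe (SE, adjusted p = 3.7e-04, limma). Its other kept probes had -0.57 and -0.076, and the call was lost in the values the authors normalized (adjusted p = 0.12, limma). STK3 had 0.14 ± 0.08 and SAV1 0.16 ± 0.10 (SE), neither past the threshold. LATS1 and the merlin gene NF2 were detected on no array. Of the TEAD-binding VGLL cofactors, VGLL1, VGLL2 and VGLL3 were detected on no array and VGLL4 had 0.10 ± 0.08 (SE). With TEAD3 this list had only 2 measured genes, of which 0 passed in limma, against 30.6% of all rows, and 0 at an unadjusted p under 0.05, against 39.7%.

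**Figure D3:**
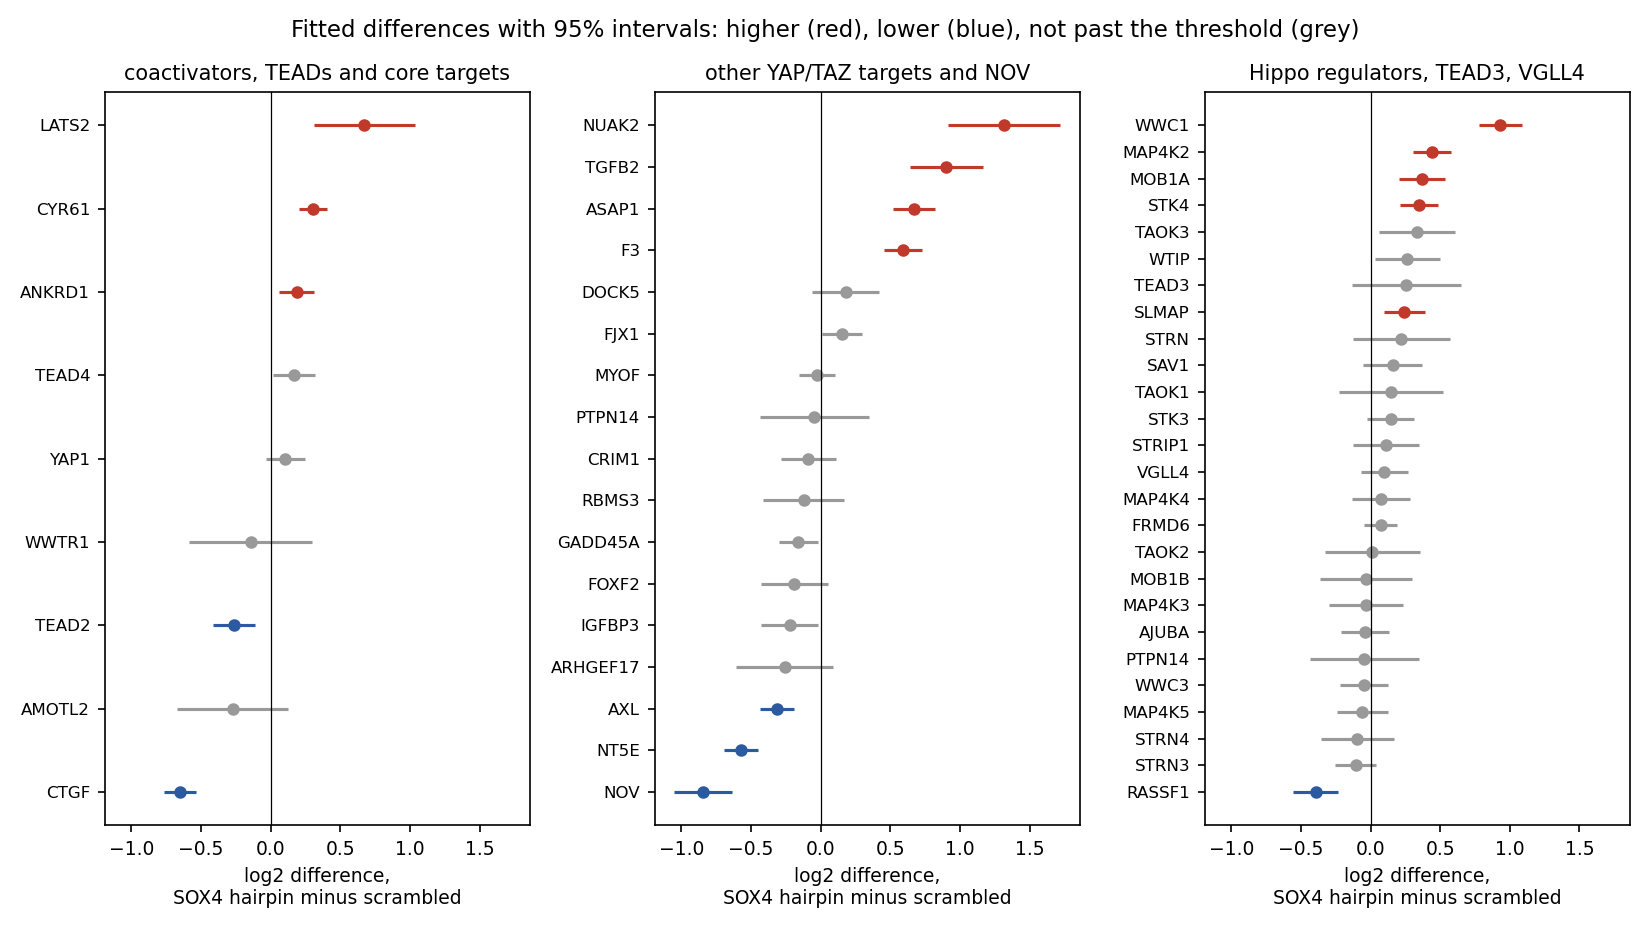
Log2 difference, SOX4 hairpin minus scrambled (x axis), with 95% intervals from limma for every measured gene (y axis) of the core group, of the other targets with NOV, and of the Hippo regulators with TEAD3 and VGLL4. Red and blue mark genes higher or lower at an adjusted p under 0.05. Each panel has genes on both sides of 0, from CTGF at -0.65 to LATS2 at 0.67, from NOV at -0.84 to NUAK2 at 1.32 and from RASSF1 at -0.39 to WWC1 at 0.93.

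Across the processing alternatives, CTGF, CYR61 and LATS2 kept their direction and their call in every one in which they were measured. CTGF ranged from -0.71 to -0.60 and CYR61 from 0.29 to 0.31.

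**Figure D4:**
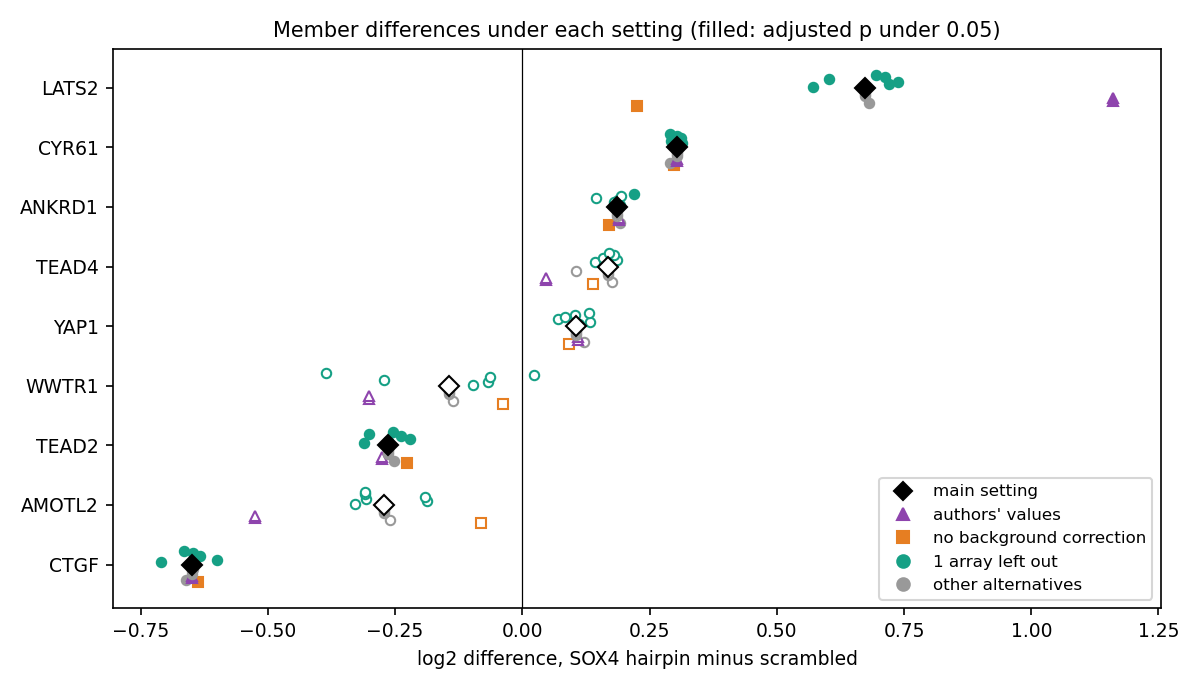
Log2 difference of the 9 measured core genes (y axis) under the main setting and its alternatives, SOX4 hairpin minus scrambled (x axis), with filled symbols where the adjusted p was under 0.05. CTGF and CYR61 form tight groups on opposite sides of 0, LATS2 spreads from 0.23 to 1.16, and WWTR1 crosses 0.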

How the data were processed

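The authors deposited probe intensity on a linear scale, not normalized, with a detection p-value per probe and array; the submitters' processing notes name GenomeStudio 2011.1. They also deposited log2 values with 1 row per gene, and a table of linear fold changes; per the file headers, RMA in ArrayStar was used. A heading of that fold table names another hairpin, but its log2 folds correlated at 0.996 with those computed from the value table for the SOX4 hairpin, and it was read as that comparison.

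Background correction and quantile normalization used neqc in limma 3.58.1 (R 4.3.3; offset 16). Of 47322 probes, the 15717 detected (p under 0.01) on 3 or more of the 6 arrays were kept. The brightest kept probe stood for a gene, giving 12451 rows, which were compared by lmFit and eBayes (intensity trend on; Benjamini-Hochberg adjusted p under 0.05). The fit was run on simulated arrays with independent noise, in which only probes well above background changed. That run does not bear on calls near background or on replicates with technical spread only. Alternatives varied background correction, normalization, source of values, filter, probe choice, trend, replicate block and arrays.

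The genes and lists were chosen with earlier results of these data known. The text names all 10 core genes, SOX4, TEAD3, up to 4 raised and 4 lowered genes per list by size, and the 3 genes nearest to CTGF. SLMAP, IGFBP3, GADD45A, STK3, SAV1, VGLL4, markers and genes named as undetected were added after their values were seen. The 4 gene pairs compared were not among the planned tests. Promoter sequences are from RefSeq (GRCh38.p14). matplotlib 3.10.9 (Python 3.11.15) drew the figures.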

Additional observations from a re-analysis of the deposited data

How the results depend on the processing

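CTGF, CYR61 and LATS2 kept their direction and call under each alternative that measured them, and YAP1, TEAD4 and AMOTL2 kept their direction without passing. ANKRD1 lost its call in the authors' values (0.19, adjusted p = 0.081), in those values with the replicate block (0.19, adjusted p = 0.11), with no detection filter (0.19, adjusted p = 0.054) and with no intensity trend (0.19, adjusted p = 0.085), all in limma. TEAD2 lost its call in the authors' values with the replicate block (-0.27). With 1 array left out, ANKRD1 ranged from 0.14 to 0.22, losing its call in 3 of the 6 fits, and WWTR1 from -0.39 to 0.022. Of all rows, 3807 of 12451 (30.6%) changed in the main setting. In the authors' values, tested without a detection filter, 2160 of 34687 (6.23%) changed, and 1944 (5.60%) with the replicate block. Of the core genes, 5 of 9 passed in the main setting. In the authors' values 4 of 10 passed, and 3 of 10 with the block. The block was fitted only to those values, since the headings of the intensity table do not number all arrays. In order of level, arrays 1, 2a and 2b matched the authors' scrambled samples 1, 2 and 3 for YAP1, TEAD2, CYR61 and ANKRD1. A block numbered from this match was not tested. Same-numbered samples did not deviate together (correlations of 0.011, 0.0023 and -0.020 over 11757 genes), 2 of 6 samples correlated best with their own number, and the numbers were not taken as pairs. With 1 array left out, 0 to 1 genes of the TEAD3 and VGLL list passed (TEAD3, without scrambled array 2a). LATS2, WWTR1 and AMOTL2 were not tested with detection on all 6 arrays, which removes them. A slide block could not be fitted, as no slide is named in the files analysed. Signal near background limits LATS2, WWTR1, AMOTL2, TEAD1, NUAK2 and TGFB2. The cause of the lost calls was not tested.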
